A study of Mus with 18 samples.

Results

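The CXC chemokines described here are 8 genes of the 55416 gene IDs in the count tables, listed by their Ensembl IDs: Cxcl1 (ENSMUSG00000029380), Cxcl2 (ENSMUSG00000058427), Cxcl3 (ENSMUSG00000029379), Cxcl5 (ENSMUSG00000029371), Cxcl10 (ENSMUSG00000034855), Cxcl12 (ENSMUSG00000061353), Cxcl14 (ENSMUSG00000021508) and Cxcl16 (ENSMUSG00000018920). They were chosen with earlier results of these data known, so they are not a choice blind to the data. Chemokines are small secreted proteins that steer migrating cells through G protein-coupled receptors, and the CXC class is named after the residue that separates its first cysteines. Cxcl1, Cxcl2, Cxcl3 and Cxcl5 carry the ELR motif and attract neutrophils through Cxcr2, while Cxcl10 is an interferon-induced ligand of Cxcr3 on T cells. Cxcl12 binds Cxcr4 and the scavenging receptor Ackr3, Cxcl16 is a membrane-bound ligand of Cxcr6 that can be shed, and Cxcl14 is a homeostatic member made by many epithelia. In the eye, neutrophil-attracting chemokines are known for their part in the inflammation that follows injury.

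RNA of mouse lens epithelial cells (LECs) on their capsules was sequenced in 18 libraries, 3 for each of 6 groups. WT, Egr1KO and FosBcKO mice, all labelled C57BL/6 and 3 to 5 months old, were sampled at 0 h and at 6 h post cataract surgery (PCS), the surgical removal of the lens fiber cells. The Egr1KO mice are homozygous for a systemic allele with a neo cassette in exon 2 of Egr1, which leaves a truncated product. The FosBcKO mice carry a Fosb allele with floxed exons 2 and 3 and the MLR10cre transgene, which a modified alpha A-crystallin promoter drives in the lens, so that other cells of a capsule sample can keep Fosb. The WT libraries are labelled wildtype with no transgene given, so the Fosb deletion and the presence of cre cannot be told apart. Each library pooled 5 capsules, and the second eye of a mouse was operated 6 h after the first and both capsules were then taken, so a 0 h capsule comes from a mouse with a 6 h old injury in its other eye.

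Each library held 9609295 to 13871592 counted read pairs, so that 1 count was worth 0.0721 to 0.104 CPM, the counts scaled to a library total of 1000000. The counts of the targeted genes did not check the labels: Egr1 averaged 3339 ± 1196 CPM in Egr1KO at 6 h and 1704 ± 311 CPM in WT at 6 h, and Fosb averaged 1651 ± 192 CPM in FosBcKO at 6 h and 1075 ± 409 CPM in WT at 6 h (SD, n = 3). Both alleles leave part of the gene in place, and counts per gene cannot show which part was read. Egr1KO and FosBcKO below therefore name the libraries so labelled. The 4 of 8 lens epithelial markers that could be matched to an ID summed to 1727 to 1990 CPM in the 0 h libraries. In the 6 h libraries they summed to 537 to 1541 CPM. These sums had no reference to be set against, so they do not check the labelled cell type. None of the 8 neutrophil markers and none of the 8 lens fiber markers could be matched to an ID, so the levels of those cell types are not analysed here.

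**Figure D1:**
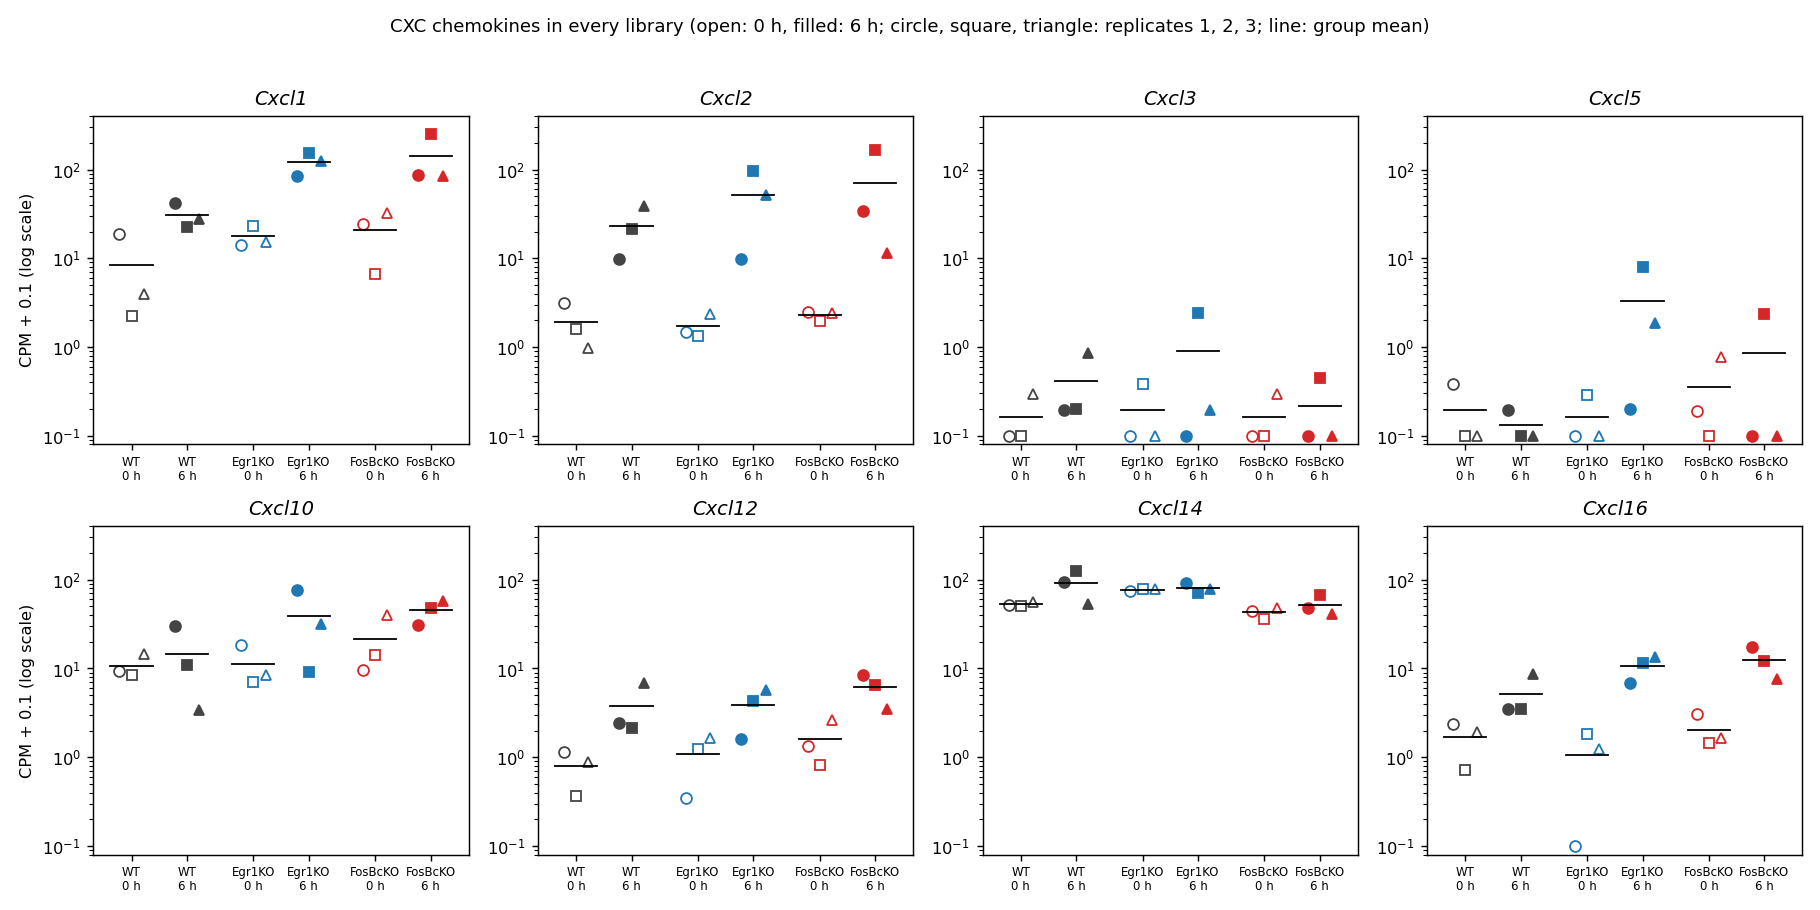
CPM plus 0.1 on a log axis for each of the 8 CXC chemokines in every library, with open symbols for 0 h, filled symbols for 6 h, circles, squares and triangles for replicates 1, 2 and 3, and a line at the group mean. All Cxcl1 symbols of both knockouts at 6 h, from 83.8 CPM upwards, lie above all WT symbols at 6 h, of which the highest is at 41.4 CPM, while Cxcl3 and Cxcl5 lie near the level of single counts in most libraries.

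The first question was how the CXC chemokines respond to lens injury within each genotype. Of the 8 members, 6 passed the filter on low counts in these comparisons, and Cxcl3 and Cxcl5 did not. In WT, Cxcl2 and Cxcl12 rose, in Egr1KO Cxcl1, Cxcl2 and Cxcl16 rose, and in FosBcKO Cxcl12 and Cxcl16 rose. A gene is said to rise or fall here where edgeR's false discovery rate (FDR) over all genes tested was at most 0.05 and the change exceeded 2-fold. No member fell in any of the 3 genotypes. The share of all genes tested that rose was 13.5% in WT, 9.28% in Egr1KO and 11.2% in FosBcKO, beside 2, 3 and 2 of the 6 members tested. The median log2 fold change of those 6 members was 1.67 in WT, 2.41 in Egr1KO and 2.32 in FosBcKO, and that of all genes tested lay between -0.022 and 0.048. In bulk samples of this kind, a lower level of an mRNA from fewer cells of a type and from less RNA per cell cannot be told apart.

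Cxcl2, which encodes the neutrophil attractant also called MIP-2, had the largest fitted change of the 6 tested members in each genotype. In WT its level was 3.06, 1.51 and 0.876 CPM at 0 h and 9.61, 21.1 and 38.3 CPM at 6 h. In Egr1KO it was 1.39, 1.25 and 2.29 CPM at 0 h and 9.60, 95.2 and 51.5 CPM at 6 h. In FosBcKO it was 2.41, 1.87 and 2.33 CPM at 0 h and 33.7, 166 and 11.4 CPM at 6 h. Of the 17469 genes kept over all libraries, 27.2% in WT, 17.9% in Egr1KO and 22.5% in FosBcKO were higher at 6 h without overlap. For Cxcl2, too, every 6 h library lay above every 0 h library of its genotype. The highest library exceeded the lowest of its group by 3.50-fold in WT, 1.83-fold in Egr1KO and 1.29-fold in FosBcKO at 0 h, and by 3.99-fold, 9.92-fold and 14.5-fold at 6 h. The log2 fold change was 3.52 ± 0.59 (SE) in WT, an 11.5-fold rise with an FDR of 0.00563, and 5.01 ± 0.80 in Egr1KO with an FDR of 0.00795. In FosBcKO it was 5.06 ± 1.30, and with an FDR of 0.0534 it missed the threshold. Without FosBcKO replicate 2 at 6 h, the highest library, Cxcl2 passed in FosBcKO with a log2 fold change of 3.24 and an FDR of 0.00693, and without replicate 3 at 6 h with 5.50 and 0.0152. In WT the call held in 6 of 6 fits that left out a library.

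Cxcl1, the mouse homologue of the GRO chemokines and the neighbour of Cxcl2 on chromosome 5, was already counted at 0 h in every library. In WT its level was 18.7, 2.13 and 3.89 CPM at 0 h and 41.4, 22.5 and 27.4 CPM at 6 h. In Egr1KO it was 14.2, 23.3 and 15.1 CPM at 0 h and 84.2, 152 and 124 CPM at 6 h. In FosBcKO it was 24.01, 6.53 and 31.9 CPM at 0 h and 87.4, 249.995 and 83.8 CPM at 6 h. In each genotype all 6 h libraries lay above all 0 h libraries, as for the shares of genes without overlap given with Cxcl2. WT replicate 1 at 0 h, with 195 counts, stood apart from the other WT libraries at 0 h, with 24 and 40 counts. The log2 fold change was 2.83 ± 0.25 (SE) in Egr1KO, a 7.10-fold rise with an FDR of 0.000848. It was 1.79 ± 0.71 in WT with an FDR of 0.09997 and 2.78 ± 0.80 in FosBcKO with an FDR of 0.0647, and neither passed by the F-test. With all libraries kept, Cxcl1 passed by DESeq2 in both WT and FosBcKO. In FosBcKO it also passed by the exact test and with dispersions without the robust option. The WT result by the F-test depended on the library that stood apart: without WT replicate 1 at 0 h the log2 fold change was 3.22 with an FDR of 0.0120. With the replicate number as a block, which the pairing of the WT libraries allows, Cxcl1 also passed in WT, at a log2 fold change of 2.25 ± 0.41 and an FDR of 0.00493.

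Cxcl3 and Cxcl5, further ligands of Cxcr2, were near the level of single counts. Cxcl3 had 0 to 8 counts in 17 of the 18 libraries and 32 counts in Egr1KO replicate 2 at 6 h. Cxcl5 had 0 to 7 counts in 15 of the 18 libraries. The other 3 were Egr1KO replicates 2 and 3 at 6 h, with 108 and 19 counts, and FosBcKO replicate 2 at 6 h, with 26 counts. The same library, Egr1KO replicate 2 at 6 h, was thus the highest for both genes and the highest of its group for Cxcl1 and Cxcl2. A count of 0 allows up to 3 counts, which is 0.216 to 0.312 CPM in these libraries, and covers counting error only. Where Cxcl5 met the filter, it did so through the libraries in which it was high, so no test of it is given.

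Cxcl16 and Cxcl12 were low at 0 h in every genotype. Cxcl16 stood at 2.30, 0.622 and 1.85 CPM at 0 h and 3.39, 3.43 and 8.48 CPM at 6 h in WT. In Egr1KO it stood at 0, 1.73 and 1.14 CPM at 0 h and 6.73, 11.4 and 13.3 CPM at 6 h, and in FosBcKO at 2.95, 1.35 and 1.55 CPM at 0 h and 17.4, 12.01 and 7.56 CPM at 6 h. All 6 h libraries were above all 0 h libraries of their genotype, as for the shares of genes without overlap given with Cxcl2. The 0 h levels of Cxcl16 rest on 0 to 33 counts per library. Cxcl16 rose in Egr1KO by 3.53 ± 0.87 (log2, SE) with an FDR of 0.0273 and in FosBcKO by 2.64 ± 0.43 with an FDR of 0.00482, while in WT the change was 1.55 ± 0.58 with an FDR of 0.0809. The FosBcKO call held without any one library. The Egr1KO call was lost without Egr1KO replicate 2 or 3 at 0 h or replicate 3 at 6 h, with FDRs of 0.0543, 0.0958 and 0.0975.

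Cxcl12, also called SDF-1, stood at 1.05, 0.267 and 0.778 CPM at 0 h and 2.36, 2.02 and 6.67 CPM at 6 h in WT. In Egr1KO the values were 0.245, 1.15 and 1.56 CPM at 0 h and 1.48, 4.25 and 5.56 CPM at 6 h, and in FosBcKO 1.25, 0.726 and 2.52 CPM at 0 h and 8.41, 6.48 and 3.44 CPM at 6 h. Of all genes, 27.2% in WT and 22.5% in FosBcKO were higher at 6 h without overlap. For Cxcl12 the libraries of the 2 times overlapped in Egr1KO and did not overlap in WT and FosBcKO. The log2 fold changes were close to each other, at 2.25 ± 0.69 in WT (FDR 0.0438), 1.99 ± 0.77 in Egr1KO (FDR 0.0973) and 2.00 ± 0.57 in FosBcKO (FDR 0.0321). These calls rest on 3 to 98 counts per library. In WT the call held in 1 of 6 fits that left out a library, the one without replicate 2 at 6 h, and the log2 fold change ranged from 1.59 to 2.65. In FosBcKO it was lost without replicate 1 or 2 at either time, with FDRs of 0.0789 to 0.116. In Egr1KO it was gained without replicate 1 at 6 h, with an FDR of 0.0328.

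Cxcl10 and Cxcl14 did not pass in any genotype by the quasi-likelihood F-test without a block. Cxcl10 stood at 9.29, 8.27 and 14.5 CPM at 0 h and 29.7, 10.9 and 3.34 CPM at 6 h in WT. It stood at 18.5, 6.91 and 8.33 CPM at 0 h and 77.4, 9.08 and 31.3 CPM at 6 h in Egr1KO, and at 9.46, 14.2 and 40.3 CPM at 0 h and 30.5, 48.1 and 57.6 CPM at 6 h in FosBcKO. The libraries of the 2 times overlapped in each genotype. The fitted log2 changes of Cxcl10 were 0.38 ± 0.68 in WT (FDR 0.708), 1.88 ± 0.75 in Egr1KO (FDR 0.110) and 1.08 ± 0.57 in FosBcKO (FDR 0.221). Without WT replicate 1 at 6 h, the WT value was -0.66, and with the replicate block it was -0.0090. With that block Cxcl10 passed in Egr1KO (FDR 0.0343) and in FosBcKO (FDR 0.00352), where not all same-numbered libraries deviated together. By the exact test of edgeR, Cxcl10 passed in Egr1KO (1.89, FDR 0.0430), and by DESeq2 it did not (FDR 0.103). By the F-test it passed in Egr1KO without replicate 2 at 6 h (2.37, FDR 0.0414) and in FosBcKO without replicate 3 at 0 h (1.94, FDR 0.0163).

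Cxcl14 varied little within the 0 h groups, with SDs of 2.10 to 6.03 CPM. Its level was 51.6, 51.0 and 56.6 CPM at 0 h and 93.5, 126 and 53.5 CPM at 6 h in WT, 74.8, 77.8 and 78.9 CPM and then 92.3, 71.4 and 79.3 CPM in Egr1KO, and 44.8, 36.4 and 48.1 CPM and then 47.8, 67.7 and 40.5 CPM in FosBcKO. The libraries of the 2 times overlapped in each genotype. The fitted log2 changes were 0.69 ± 0.31 in WT (FDR 0.130), 0.13 ± 0.16 in Egr1KO (FDR 0.569) and 0.28 ± 0.24 in FosBcKO (FDR 0.407). Without WT replicate 3 at 6 h, Cxcl14 passed in WT with a log2 fold change of 1.00 and an FDR of 0.00190.

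Markers of other cells differed between the times as well. Over all genes tested, 13.5% rose in WT, 9.28% in Egr1KO and 11.2% in FosBcKO. Which markers could be matched to an ID is not independent of these results. The matched endothelial markers summed to 3.02 to 14.01 CPM in the 9 libraries at 0 h and to 10.3 to 117 CPM at 6 h, and 3 of the 3 rose in WT, 3 in Egr1KO and 2 in FosBcKO. Opn1sw, a photoreceptor gene, rose in each genotype. The matched leukocyte markers summed to 1.60, 22.02 and 39.5 CPM in WT at 0 h and to 25.6 to 40.2 CPM in the knockouts at 0 h. Of these markers, 8 were tested in WT, 9 in Egr1KO and 10 in FosBcKO, and 2 rose in each genotype. The WT library with the high Cxcl1 at 0 h, replicate 1, held 22.02 CPM of these and the highest sum of pigment markers of its group, 76.4 CPM beside 10.5 and 54.2 CPM. From 0 h to 6 h the matched pigment markers went from 10.5 to 76.4 CPM to 27.9 to 145 CPM in WT, where none of the 3 passed. In Egr1KO they went from 11.3 to 41.2 CPM to 79.7 to 271 CPM, and Dct and Pmel, both of melanin-forming cells, rose. In FosBcKO they went from 20.9 to 65.3 CPM to 125 to 291 CPM, and Dct rose. The share of read pairs that fell outside genes also lay higher in all 6 h libraries than in the 0 h libraries of their genotype, from 15.2% to 19.8% at 0 h to 23.6% to 27.4% at 6 h in WT, from 9.09% to 13.5% to 20.03% to 24.01% in Egr1KO, and from 8.03% to 20.9% to 23.4% to 30.5% in FosBcKO. The part of these cells and of this share in the changes of the CXC chemokines was not tested.

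**Figure D2:**
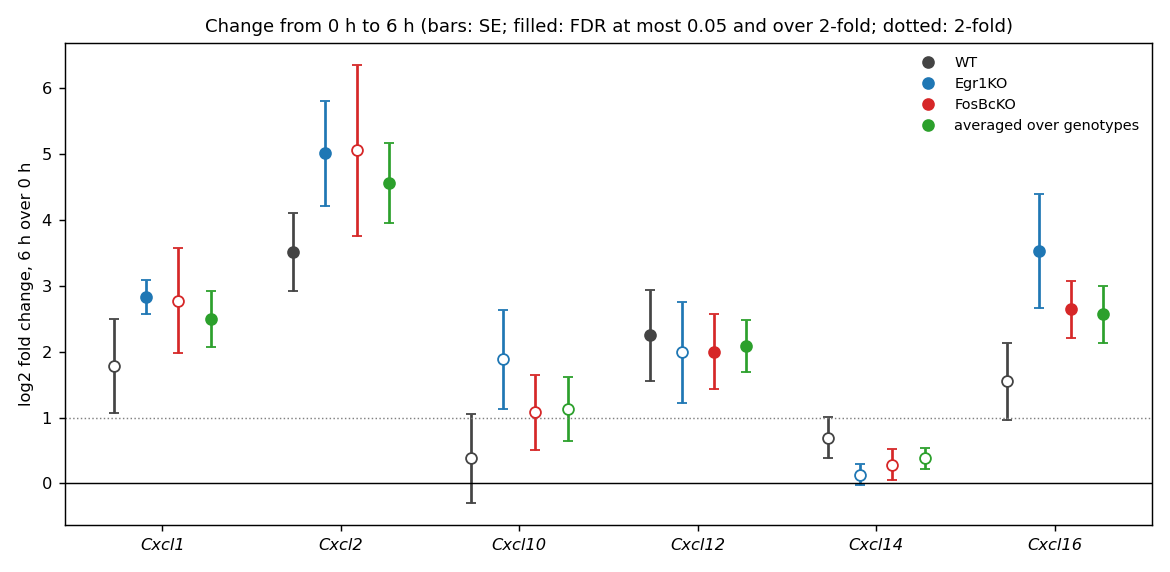
Log2 fold change from 0 h to 6 h with its SE for the 6 members that passed the filter in each genotype, from the quasi-likelihood fits. Values are shown for each genotype and averaged over the genotypes, a comparison added after the data had been seen. Symbols are filled where the FDR was at most 0.05 and the change over 2-fold, and a dotted line marks 2-fold. All fitted values lie above 0, from 0.13 for Cxcl14 in Egr1KO to 5.06 for Cxcl2 in FosBcKO. The filled symbols belong to Cxcl1, Cxcl2, Cxcl12 and Cxcl16, each of which is filled in the average and only in some of the genotypes.

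Averaged over the genotypes, a comparison added after the data had been seen, Cxcl1, Cxcl2, Cxcl12 and Cxcl16 rose. These are 4 of the 7 members tested over all 18 libraries, where 18.9% of all genes tested rose. The log2 fold changes were 4.56 ± 0.60 for Cxcl2, 2.57 ± 0.43 for Cxcl16, 2.49 ± 0.42 for Cxcl1 and 2.08 ± 0.39 for Cxcl12 (SE), with FDRs of 2.01e-05, 9.13e-05, 0.000169 and 0.000236. All 4 passed in each of the 18 fits that left out a library. Cxcl10, at 1.13 ± 0.48 with an FDR of 0.0606, passed by DESeq2 (1.14, FDR 0.0313) and in 3 of those fits, without WT replicate 3 at 6 h (1.28, FDR 0.0304), Egr1KO replicate 2 at 6 h (1.23, FDR 0.0424) or FosBcKO replicate 3 at 0 h (1.36, FDR 0.0362). Cxcl14 changed by 0.38 ± 0.16 with an FDR of 0.0561 and did not pass. Cxcl5 met the filter here through the 3 libraries at 6 h named above.

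The second question was how each knockout compares with WT at the same time. At 0 h no member passed in either knockout, where 0.0904% of all genes tested were higher in Egr1KO and 0.185% in FosBcKO. Over all genes, the exact test of edgeR gave an unadjusted p under 0.05 for 920 of 14373 in Egr1KO and 818 of 14556 in FosBcKO. DESeq2 called 0 members in each, and 74 and 43 of all genes. At an unadjusted p under 0.05 the exact test gave 1 member in Egr1KO and 0 in FosBcKO. The 1 member in Egr1KO was Cxcl14. It averaged 77.2 ± 2.10 CPM in Egr1KO and 53.1 ± 3.08 CPM in WT at 0 h (SD, n = 3), without overlap. Of the 17469 genes kept over all libraries, 6.23% were higher in Egr1KO at 0 h without overlap. The log2 fold change of Cxcl14 was 0.56 with an FDR of 0.0451, so that it passed only where no fold minimum was set. Of all genes tested, 0.118% then passed as higher. The corneal marker Krt12 was lower in both knockouts at 0 h, at 3.47 to 11.97 CPM in WT, 0.208 to 0.571 CPM in Egr1KO and 0.415 to 1.16 CPM in FosBcKO, and its part in the level of Cxcl14 was not tested. Cxcl1 averaged 17.5 ± 5.03 CPM in Egr1KO, 20.8 ± 12.98 CPM in FosBcKO and 8.23 ± 9.08 CPM in WT at 0 h, and the groups overlapped. The log2 fold change of Cxcl1 was 1.11 in Egr1KO and 1.35 in FosBcKO, with FDRs of 0.964 and 1. Without WT replicate 1 at 0 h, Cxcl1 passed in Egr1KO with a log2 fold change of 2.55 and an FDR of 8.85e-06, and in FosBcKO it was 2.82 with an FDR of 0.169.

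At 6 h Cxcl1 was higher in both knockouts than in WT, and Cxcl16 was higher in FosBcKO. That is 1 of the 6 members tested in Egr1KO, where 0.461% of all genes tested were higher, and 2 of the 6 in FosBcKO, where 4.48% were. Cxcl1 averaged 120.3 ± 34.2 CPM in Egr1KO, 140.4 ± 94.9 CPM in FosBcKO and 30.4 ± 9.81 CPM in WT at 6 h (SD, n = 3). No knockout library overlapped with a WT library. The difference was 2.18 on the log2 scale in Egr1KO, 4.55-fold, with an FDR of 7.51e-07 by the exact test, and Cxcl1 ranked second by p among the 15618 genes tested. In FosBcKO the difference was 2.38, 5.21-fold, with an FDR of 0.000183. Both calls held in each of 6 fits that left out a library. Both knockouts were compared with the same 3 WT libraries, so these results are not independent of each other.

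The call of Cxcl1 at 6 h depends on the test. The quasi-likelihood F-test gave log2 differences of 2.18 ± 0.29 and 2.38 ± 0.50 (SE), with FDRs of 0.394 in Egr1KO and 0.0419 in FosBcKO. By that test no gene at all passed in Egr1KO at 6 h, while 1317 genes had an unadjusted p under 0.05. In a quasi-likelihood fit of all 18 libraries together, the FDRs of Cxcl1 were 0.270 and 0.119. DESeq2 gave FDRs of 3.37e-07 and 4.54e-05.

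The other members at 6 h differed less from WT relative to their spread. Cxcl16 averaged 12.3 ± 4.94 CPM in FosBcKO, 10.5 ± 3.37 CPM in Egr1KO and 5.10 ± 2.93 CPM in WT, and the libraries of each knockout overlapped with WT. Its log2 difference was 1.41 in FosBcKO with an FDR of 0.0390 and 1.27 in Egr1KO with an FDR of 0.262. The FosBcKO call was lost without WT replicate 1 or 2 or FosBcKO replicate 1 or 2, with FDRs of 0.172 to 0.245. It was also lost by the quasi-likelihood F-test (FDR 0.153), in the fit of all 18 libraries (FDR 0.3003), with RLE size factors (FDR 0.0574) and with no filter (FDR 0.0780), and DESeq2 made it (FDR 0.0479). Cxcl2 differed by 1.38 in Egr1KO (FDR 0.538) and 1.85 in FosBcKO (FDR 0.245). It passed without Egr1KO replicate 1 (1.88, FDR 0.0167) and, in FosBcKO, without replicate 3 (2.36, FDR 0.0225). Cxcl10 differed by 1.65 (FDR 0.556) and 1.74 (FDR 0.112), with the FosBcKO libraries from 30.5 CPM upwards and the WT libraries up to 29.7 CPM, and passed in FosBcKO without WT replicate 1 (2.78, FDR 0.000769). Cxcl12 differed by 0.28 (FDR 0.960) and 0.89 (FDR 0.465). Cxcl14 differed by 0.031 (FDR 0.999) in Egr1KO and by -0.69 (FDR 0.395) in FosBcKO, and in FosBcKO it passed as lower without WT replicate 3 (-1.02, FDR 0.0252).

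**Figure D3:**
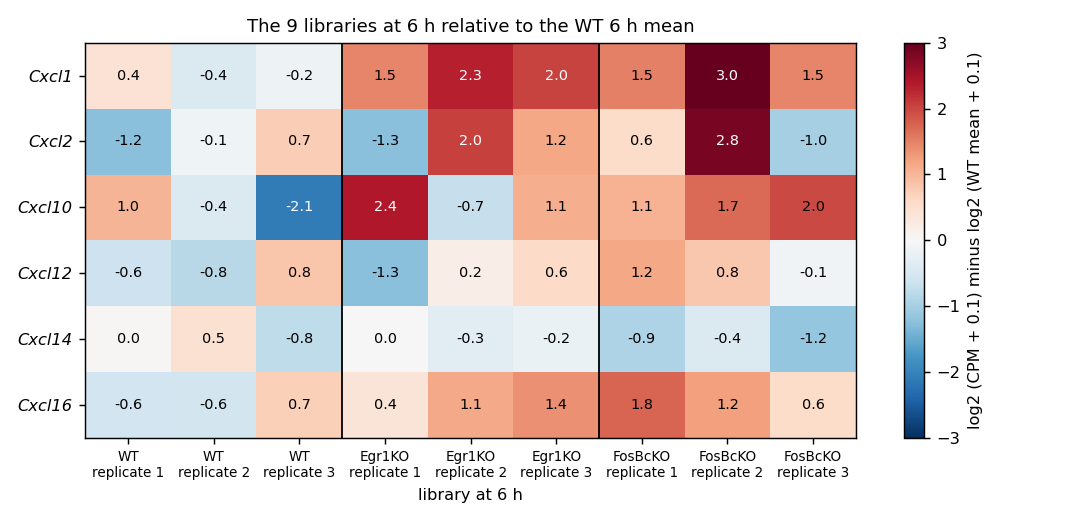
Each cell gives log2 of CPM plus 0.1 in one 6 h library minus log2 of the WT 6 h mean plus 0.1, for the 6 members that passed the filter, with the 3 libraries of each genotype side by side. Cxcl1 is red in all 6 knockout libraries, from 1.5 to 3.0, while Cxcl2 and Cxcl10 hold both signs within a group.

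Within the 6 h groups the members did not all peak in the same library. In Egr1KO, replicate 1 held the lowest Cxcl1, Cxcl2, Cxcl12 and Cxcl16 of its group and the highest Cxcl10 and Cxcl14, while replicate 2 held the highest Cxcl1 and Cxcl2 and the lowest Cxcl10 and Cxcl14. In WT, replicate 3 held the highest Cxcl2, Cxcl12 and Cxcl16 and the lowest Cxcl10 and Cxcl14. In FosBcKO, replicate 2 held the highest Cxcl1, Cxcl2 and Cxcl14, replicate 3 the highest Cxcl10, and replicate 1 the highest Cxcl12 and Cxcl16. The highest library exceeded the lowest of its group by 3.99-fold for Cxcl2 and 8.90-fold for Cxcl10 in WT, and by 9.92-fold and 8.52-fold in Egr1KO.

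Markers of other cells also differed between the 6 h groups. The 10 of 13 macrophage and leukocyte markers with an ID summed to 22.6 to 42.1 CPM in WT, 45.0 to 70.0 CPM in Egr1KO and 75.9 to 84.1 CPM in FosBcKO at 6 h, and none of them was at 0 in a whole group. In FosBcKO, 8 of the 10 tested were higher than in WT at 6 h, and in Egr1KO 0 of the 8 tested were. Of all genes tested, 4.48% were higher in FosBcKO and 0.461% in Egr1KO. The 3 of 4 melanocyte and pigment epithelium markers with an ID summed to 27.9 to 145 CPM in WT, 79.7 to 271 CPM in Egr1KO and 125 to 291 CPM in FosBcKO. The 3 endothelial markers summed to 47.9 to 117 CPM in WT, 10.3 to 29.4 CPM in Egr1KO and 29.9 to 96.2 CPM in FosBcKO, and the corneal marker Krt12 ranged from 1.43 to 131 CPM in WT, 0.0721 to 3.76 CPM in Egr1KO and 0.259 to 198 CPM in FosBcKO. The 4 lens epithelial markers summed to 668 to 1004, 537 to 1541 and 897 to 1534 CPM. The 5 of 6 genes listed as fibroblast markers with an ID summed to 115 to 240 CPM in WT, 151 to 426 CPM in Egr1KO and 308 to 546 CPM in FosBcKO. In WT, Pdgfra and Pdgfrb made up most of this, at means of 82.2 and 91.8 CPM. Col1a2, Col1a1 and Dcn averaged 12.4, 4.35 and 0.742 CPM there, and Col1a2 averaged 124 CPM in FosBcKO. Whether these genes were read from fibroblasts was not tested. The 1 of 3 photoreceptor markers with an ID, Opn1sw, ranged from 66.3 to 174 CPM in WT, 7.25 to 45.7 CPM in Egr1KO and 11.6 to 54.7 CPM in FosBcKO. The part of these cells in the levels of Cxcl1 and Cxcl16 was not tested.

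**Figure D4:**
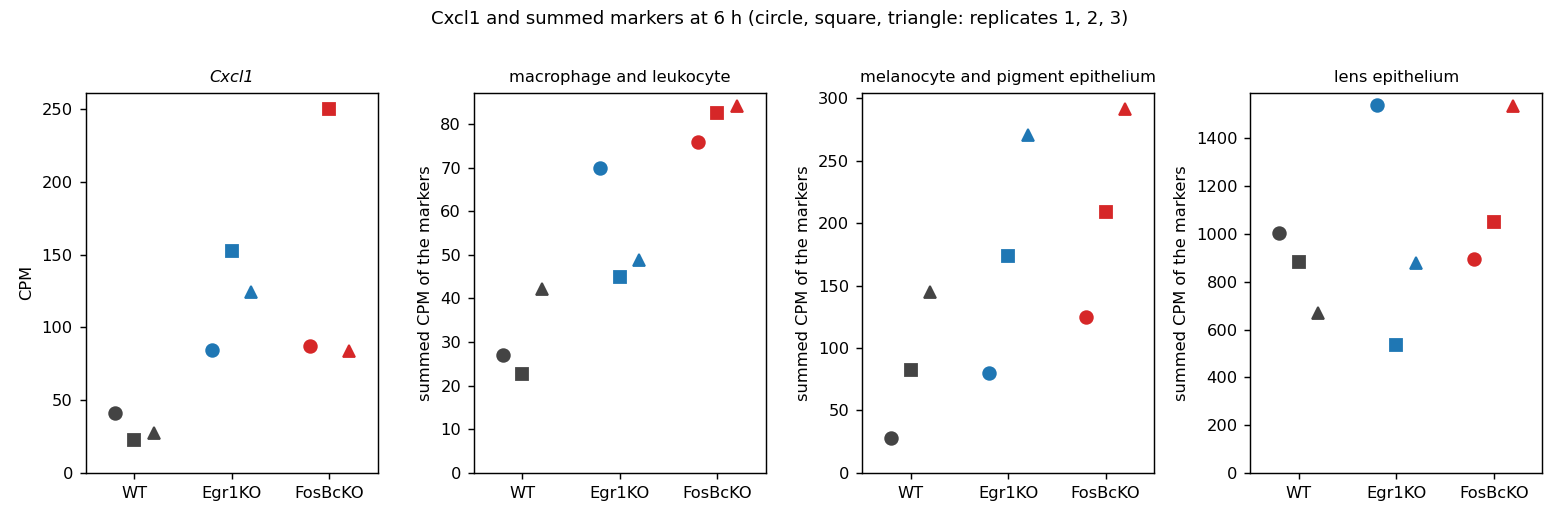
CPM of Cxcl1 (left) and summed CPM of the matched markers of 3 cell types in the 9 libraries at 6 h, all on linear axes from 0, with circles, squares and triangles for replicates 1, 2 and 3. The leukocyte markers, like Cxcl1, lie higher in all knockout libraries, from 45.0 CPM, than in WT, up to 42.1 CPM, while the pigment and lens epithelial markers overlap between Egr1KO and WT.

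An interaction term tested whether a knockout responded to injury differently from WT. No member passed in either knockout, and 0% of the 17469 genes tested did by the quasi-likelihood F-test, with 0 members at an unadjusted p under 0.05. Over all genes, 1141 and 1171 had an unadjusted p under 0.05, and DESeq2 called 2 and 25 genes, with 0 members among them. For Cxcl1 the difference between responses was 1.02 ± 1.02 in Egr1KO and 0.93 ± 1.01 in FosBcKO (log2, SE), with FDRs of 0.865 and 0.898, and without WT replicate 1 at 0 h it was -0.43 and -0.52. For Cxcl2 it was 1.47 ± 1.44 and 1.49 ± 1.42. For Cxcl16 it was 1.95 ± 0.99 in Egr1KO and 1.04 ± 0.95 in FosBcKO, with FDRs of 0.772 and 0.874. A different response of Cxcl1 from 0 h to 6 h was thus not detectable in these libraries beside its higher level at 6 h.

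Set in order of their means, the 6 groups ran for Cxcl1 from WT, Egr1KO and FosBcKO at 0 h to WT, Egr1KO and FosBcKO at 6 h, and the only neighbours whose libraries did not overlap were WT and Egr1KO at 6 h. For Cxcl2 and Cxcl16 the only such step lay between FosBcKO at 0 h and WT at 6 h, with the 3 groups of each time next to each other. Cxcl14 ran by genotype in part, from FosBcKO at 0 h and 6 h and WT at 0 h to Egr1KO at 0 h and 6 h and WT at 6 h, and the step from WT at 0 h to Egr1KO at 0 h was the only one without overlap. For Cxcl3, Cxcl5, Cxcl10 and Cxcl12 all neighbouring groups overlapped. Of all genes, 3.25% at 6 h and 6.23% at 0 h were higher in Egr1KO than in WT without overlap. The share for the step from FosBcKO at 0 h to WT at 6 h was not calculated.

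Other genes of the chemokine pathway were described from lists. Which list genes could be matched to an ID is not independent of these results, so the counts of list genes that rose are a description. Of 8 receptors of CXC ligands, only Ackr3 could be matched to an ID. Ackr3, which scavenges Cxcl12, averaged 7.01 ± 0.643 CPM at 0 h and 30.4 ± 4.98 CPM at 6 h in WT (SD, n = 3) and rose by 2.02 ± 0.23 (log2, SE) with an FDR of 0.00158. It also rose in Egr1KO (2.36, FDR 0.00993) and FosBcKO (1.95, FDR 0.00175) and at 6 h did not differ from WT past the threshold (FDRs 0.895 and 0.393). Of 7 further CXC ligands, Pf4 and Ppbp, both known as platelet products, had an ID. At 6 h Pf4 averaged 0.933 ± 0.374 CPM in WT, 3.17 ± 2.40 CPM in Egr1KO and 4.50 ± 0.539 CPM in FosBcKO, and was higher in FosBcKO than in WT with an FDR of 0.000261. Ppbp had 3 counts over the WT libraries, 45 over the Egr1KO libraries and 36 over the FosBcKO libraries at 6 h.

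NF-kB is a known activator of the ELR ligands and of Cxcl10. Of its 14 subunits and inhibitors, 11 had an ID and were tested, and 6 rose in WT, 6 in Egr1KO and 7 in FosBcKO, with none lower. Of all genes tested, 13.5%, 9.28% and 11.2% rose. The median log2 fold change of the 11 in WT was 1.38. In WT, Nfkbiz, an atypical inhibitor that is itself induced early, rose by 2.79 ± 0.33, Tnfaip3, the deubiquitinase A20, by 1.77 ± 0.26, Bcl3 by 1.73 ± 0.48 and Nfkb2 by 1.67 ± 0.26. Of these 4, Nfkbiz was higher in FosBcKO than in WT at 6 h, by 1.50 with an FDR of 7.54e-06, and in Egr1KO it differed by 1.36 with an FDR of 0.520.

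Of 12 cytokines and receptors known to induce CXC ligands, 9 had an ID and 7 were tested in WT, where 4 rose and 1 fell. Of all 15440 genes tested in WT, 2082 rose and 563 fell. Il6 rose by 3.23 ± 0.56, Lif by 3.14 ± 0.21 and the adaptor Myd88 by 2.82 ± 0.33, and Tlr4, a receptor of bacterial endotoxin, fell by 1.90 ± 0.37 on the log2 scale. Il6 was higher in FosBcKO than in WT at 6 h by 2.45 with an FDR of 0.000970, and differed by 0.91 with an FDR of 0.424 in Egr1KO. Of 14 interferon response genes, 11 had an ID and 10 were tested in WT, where 4 rose and 1 fell: Gbp2 rose by 3.26 ± 0.33, Irf9 by 1.83 ± 0.25 and Stat2 by 1.72 ± 0.29, and Ifit2 fell by 1.52 ± 0.26. The median of the 10 was 1.52 in WT. Of 4 genes of chemokine processing and mRNA decay only Zfp36, which encodes an mRNA decay factor that acts on AU-rich transcripts, had an ID, and it rose in WT by 3.77 ± 0.45, in Egr1KO by 3.88 and in FosBcKO by 3.63.

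The genes most like each member over the 18 libraries were found by Pearson's r of log2 CPM among 17469 genes, and are given as a description, since these values follow the 2 times as well as the libraries. For Cxcl2 they were Vcl, Csf3 and Csf1 (r of 0.97, 0.96 and 0.96). For Cxcl1 they were Mybph, Fyb and Tcim (0.91, 0.88 and 0.88), and for Cxcl16 Icam1, Rgcc and Gm43011 (0.92, 0.91 and 0.91). For Cxcl12 they were Tbc1d9, Zfp36l1 and Stom (0.93, 0.91 and 0.91). For Cxcl10 they were Tob1 and Ccrl2 (0.89 and 0.85) with 1 gene between them that has no name in the tables used here. For Cxcl14 the nearest was Chmp4b (0.88). For Cxcl5 none are given, since it met the filter through the libraries in which it was high. No gene was among the 3 nearest of more than 1 member.

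In the RefSeq gene table (GRCm38.p6), 5 of the 8 members lie on chromosome 5. Among the CXC ligand genes of that chromosome, in order, Cxcl5 stands first, followed by Ppbp, Pf4, Cxcl3, Cxcl15, Cxcl1 and Cxcl2, and Cxcl9 stands before Cxcl10. Cxcl12 lies on chromosome 6, Cxcl16 on chromosome 11 and Cxcl14 on chromosome 13. Neighbours in the cluster differed in their counts: Cxcl1 and Cxcl2 were tested in all comparisons, while Cxcl3 and Cxcl5 each had 0 counts in 9 of the 18 libraries. Cxcl10 overlaps Art3 and Cxcl16 overlaps Zmynd15 in that table, and Cxcl1, Cxcl2 and Cxcl3 are similar in sequence, so that read pairs that could not be assigned to a single gene are missing from these counts.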

How the data were processed

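Per the labels and the study's methods, total RNA was made into stranded, ribodepleted, paired-end libraries, aligned with HISAT2 and counted per Ensembl gene with HTSeq in union mode by the authors. The assembly is named differently in these sources (GRCm38 and GRCm39), so no coordinates are given. The deposited values are raw counts per gene. HTSeq's summary lines, such as pairs outside genes (8.03% to 30.5% of all pairs), were left out.

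CPM is counts divided by the library's total and multiplied by 1000000. Levels are compared within a gene only, since gene lengths were not used. Tests used edgeR 4.0.16 in R 4.3.3 with filterByExpr, TMM scaling, robust dispersions and Benjamini-Hochberg FDR over all genes tested, two-sided: the quasi-likelihood F-test for 6 h against 0 h and interactions, the exact test for knockout against WT, each on the 6 libraries compared (interactions and averages on all 18). The study's additional FPKM criteria were not applied. DESeq2 1.42.0 was an alternative. Same-numbered WT libraries deviated together (r of 0.102 to 0.247 in 3 of 3 pairs), so a blocked value is given for WT. In Egr1KO and FosBcKO, 1 and 2 of 3 pairs exceeded 0.1. On simulated data with 200 genes changed 4-fold, the F-test for WT called 191 of them and 4 unchanged genes of 14520 tested. The exact test for Egr1KO at 6 h called 195 and 7 of 14373, and the Egr1KO interaction 162 and 14 of 15781. The changed genes were drawn from well-counted genes, and the simulated spread followed the trend over all genes. Cxcl2, Cxcl12 and Cxcl16 had lower counts than those genes in WT at 0 h, so these numbers do not show how often such members would be called.

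The members and lists were chosen with earlier results of these data known. IDs of other genes were named from the study's supplementary tables, held here only in part and partly ordered by p, so which list genes could be matched is not independent of these results. Genes of a list were named where they were among the 4 largest changes called in WT with an average log2 CPM of at least 1. Pf4, Ppbp, Krt12 and Opn1sw were named after their values were seen. Sequences and promoter motifs are not analysed here. Averages over genotypes were chosen after seeing the data. The labels give no sequencing batch. The 3 libraries of a group are separate pools of mice, and p-values measure the spread between these pools.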

Additional observations from a re-analysis of the deposited data

How the results depend on the processing

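Of the 8 members, the number called moved beyond 1.5 times under these settings. For 6 h against 0 h, DESeq2 called 4 in WT and 4 in FosBcKO, the exact test called 5 in Egr1KO and 4 in FosBcKO, and dispersions without the robust option called 4 in FosBcKO. For knockout against WT at 6 h, one fit of all 18 libraries called 0 in each, the quasi-likelihood F-test 0 in Egr1KO and 1 in FosBcKO, no filter 2 and 1, and RLE scaling 1 in FosBcKO. Of all genes, the fit of all 18 libraries called 7 in Egr1KO and 289 in FosBcKO of 17469. The F-test called 0 of 15618 and 437 of 16155, no filter 76 of 29369 and 712 of 32937, and RLE scaling 859 of 16155 in FosBcKO. The main settings called 115 of 15618 in Egr1KO and 874 of 16155 in FosBcKO. At 0 h, 1 was called in Egr1KO with no fold minimum. For the interactions, no filter called 2 and 1 members, and 264 and 404 of all 35202 genes. Leaving out a library gave for time 1 to 2 calls (WT), 2 to 5 calls (Egr1KO) and 1 to 3 calls (FosBcKO), 1 to 3 in each knockout at 6 h, and 0 to 1 in Egr1KO at 0 h. In Egr1KO the 5 and the 3 calls without a library, and the 2 with no filter at 6 h, include Cxcl5, which did not meet the filter in these comparisons when all libraries were kept. The cause of these changes was not tested.

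The labels do not say that replicate numbers mark shared mice, and libraries of different genotypes are from different mice. For 6 h against 0 h the replicate block called 5 members in Egr1KO, with Cxcl10 (FDR 0.0343) and Cxcl12 (FDR 0.0485) added to 3, and 3 each in WT and FosBcKO, where 2 were called without it, with Cxcl1 added in WT and Cxcl10 in FosBcKO (FDR 0.00352). Of all genes, the block called 2955 in WT, 1637 in Egr1KO and 2471 in FosBcKO for time. For knockout against WT at 6 h the block, which uses the quasi-likelihood F-test, called 0 members in each: Cxcl1 was lost in Egr1KO (FDR 0.689) and FosBcKO (FDR 0.165), and Cxcl16 in FosBcKO (FDR 0.342). It called 0 of all genes in Egr1KO and 86 in FosBcKO there. Other calls lost under another method were Cxcl2 in Egr1KO from 0 h to 6 h with no filter (FDR 0.0574) and Cxcl12 in FosBcKO in the fit of all 18 libraries (FDR 0.0575).

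Of the fitted log2 changes given, 1 turned its sign under another method, Cxcl10 in WT with the replicate block (-0.0090), out of 344 values. Of 420 values without a library, 9 turned: the ranges were -0.66 to 0.87 for Cxcl10 in WT, -0.021 to 0.26 for Cxcl14 in Egr1KO, -0.067 to 0.37 for Cxcl14 in FosBcKO, -0.14 to 0.94 for Cxcl12 and -0.27 to 0.38 for Cxcl14 in Egr1KO against WT at 6 h, -0.43 to 1.50 and -0.52 to 1.41 for Cxcl1 in the interactions with Egr1KO and FosBcKO, and -0.30 to 2.00 for Cxcl2 in that with FosBcKO. TMM scaling left 47 of 48 group means within 1 SD, and moved Cxcl14 in Egr1KO at 0 h to 79.5 CPM. Cxcl12, Cxcl16, Cxcl3 and Cxcl5 at 0 h rest on few counts, where depth limits what can be seen.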
